A study of Mus musculus with 7 samples.

Results

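Cholesterol reaches and leaves a cell through membrane proteins and is also made inside it from acetyl-CoA, and 5 genes of these routes were described here by the sites at which their RNA was listed as enriched with HuR. The genes were Scarb1, Abca1, Srebf2, Sqle and Acat2, and a site belonged to a gene when the authors' tables gave it that gene name. These 5 of the 6277 genes with a listed site held 18 of 18072 sites. Each of the 5 has a site because it was chosen from the listed genes, so that is not a result.

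HuR, encoded by Elavl1, is an RNA-binding protein that prefers U-rich and AU-rich stretches, many of them in 3′ untranslated regions, and is best known for stabilising the mRNAs it holds. Scarb1 encodes a receptor that takes cholesteryl ester from high-density lipoprotein and is present on absorptive cells of the intestine, and Abca1 encodes a transporter that hands cholesterol and phospholipid to apolipoprotein A-I. Srebf2 encodes the transcription factor that turns on the synthesis genes when sterol is scarce. Acat2 and Sqle encode synthesis enzymes. Acat2 is the cytosolic thiolase that joins acetyl-CoA units at the start of the pathway, and Sqle is the epoxidase that acts on squalene.

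RNA was immunoprecipitated from wild-type cells of the line CT26.WT, derived from a mouse colon cancer and grown in culture with no other treatment given in the labels. The series holds 3 immunoprecipitations with an antibody to endogenous HuR, 3 in which IgG replaced that antibody, and 1 library of input RNA; the libraries of IgG and input were not analysed here. The purpose was to find mRNAs held by HuR that bear on intestinal fat absorption. Nothing in the labels says whether the HuR immunoprecipitations came from separate cultures, and a single cell line stands for the intestine. The data are the authors' lists of called sites, referred to as list 1, list 2 and list 3, one for each HuR immunoprecipitation.

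The lists held 4722, 5384 and 7966 sites, and read depth is unknown. Each site has a fold enrichment, the signal divided by that of a control that the sources used here do not name, and a score, 10 times the negative log10 of the p that the caller gave. These are the authors' values for a single library and carry no replicate error, so folds are placed only within their own list. For lists 1, 2 and 3 in turn, the median fold was 7.21, 6.41 and 8.38. As a check of the labelled cell type, 2 of 7 epithelial markers had a site, Krt18 and Krt20, while Epcam, Krt8, Cdh1, Cdx2 and Vil1 had none, beside 28.4% of the 21900 protein-coding symbols in RefSeq with a site. Of 3 mesenchymal markers, Zeb1 had sites in lists 2 and 3 (folds 9.21 and 9.95) and Fn1 in list 3 (fold 3.71), and Vim had none. Of 4 markers of other cell types, Alb (hepatocytes) and Hbb-bs (red cells) had a site in list 2, with folds of 16 and 15.5, and Ptprc (leukocytes) and Pecam1 (endothelium) had none. A site list does not measure expression, so a marker without a site is not shown to be absent.

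Scarb1 and Abca1 had a site in all 3 lists, whereas Srebf2 and Acat2 were listed in list 2 alone and Sqle in list 3 alone. These 2 of 5 genes compare with 19.9% of all genes with a site that had one in every list, and with 55.2% that had one in at least 2. That background is unlike Scarb1 and Abca1, which had 7 and 8 sites. Of all genes with a site, 35.8% had 1 site, and the median was 2 sites. A gene with fewer than 3 sites cannot be in every list. Of the 340 genes with at least 8 sites, as many as Abca1, 283 were in every list. The same count was not made for the 7 sites of Scarb1. The 2 of 5 is therefore not read as raised recurrence. At a score of at least 70 only Scarb1 remained in every list, and at a fold of at least 5 only Abca1. List 1 held 2 of the 5 genes, list 2 held 4 and list 3 held 3, beside 54.5%, 57.8% and 62.8% of all genes with a site. The 18 sites fell into 15 separate regions. A site of every list was held by 1 of these regions, beside 1.27% of all regions, and a site of at least 2 lists by 2 of them, beside 16.1%. The region in every list was no longer found with lists of equal length or at a fold of at least 5. The count for at least 2 lists lies near the share among all regions and says nothing particular about the cholesterol genes.

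Scarb1, the lipoprotein receptor, was the member whose sites recurred at the same place. List 1 gave it 1 site and lists 2 and 3 gave it 3 each, all on chromosome 5 of mm39 and all assigned by the authors to transcript ENSMUST00000086075. The 7 sites lay at 4 positions within 11370 bases. The position from 125366701 to 125366819, 119 bases long, had the same start and end in all 3 lists. Its folds were 3.36, 3.31 and 7.23 in the order of the lists, and its scores were 88.2, 81.2 and 70.4. The fold was low for its list each time, as 1.48% of the sites of list 1, 2.43% of list 2 and 33.3% of list 3 had a lower fold. The score stood nearer the middle, with 51, 51.6 and 34.9% of the sites of the respective list below it. A region in all 3 lists was held by 193 (15.5%) of the 1248 genes with a site in every list. At least as many sites as Scarb1 were held by 8.06% of all genes with a site.

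A position 7470 bases further along, from 125374290 to 125374405, carried a Scarb1 site of 116 bases in lists 2 and 3. Its folds were 5.39 and 6.95, and its score was 140.57 in both lists. Lists 2 and 3 shared 1037 positions with the same start and end, and at 14 of them the scores were equal to the last decimal, so an equal score was uncommon. The score was lower at 85.6% of the sites of list 2 and 81% of those of list 3, although the folds again lay under the list medians. Of all 18072 sites, 21.8% had the same start and end as a site of another list.

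The other Scarb1 positions were each seen once. List 2 had a site of 74 bases at 125364423 to 125364496, the shortest of the 18, with a fold of 5.21 and a score of 104.73. List 3 had a site of 96 bases at 125375697 to 125375792, with a fold of 5.89 and a score of 72.2. All 7 Scarb1 sites had a fold below the median of their list, and 5 of them had a score above it. RefSeq places the gene Gm32701 within the bounds of Scarb1 on GRCm38. Whether the authors' counting used strand is not given in the sources used here, so reads of these overlapping genes cannot be told apart.

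**Figure D1:**
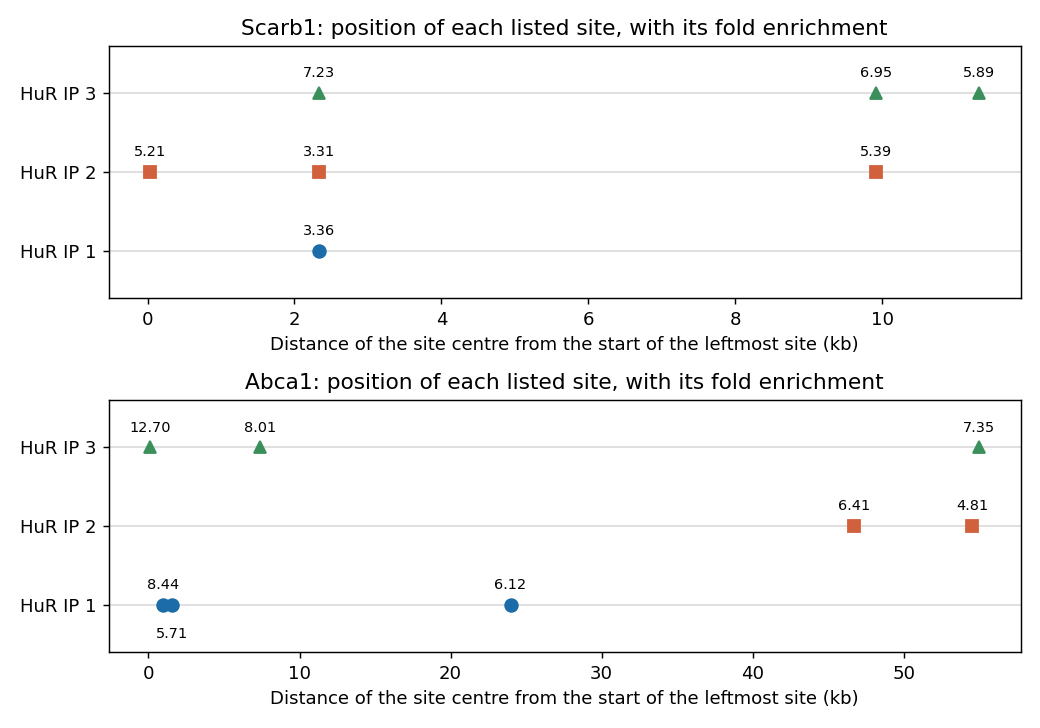
Position of every listed site of Scarb1 (upper panel) and Abca1 (lower panel) in kilobases from the start of the leftmost site, with a row for each HuR immunoprecipitation and the fold enrichment of each site printed beside it. Scarb1 has a position with a fold of 3.36, 3.31 and 7.23 in lists 1, 2 and 3 and another shared by lists 2 and 3, whereas no position of Abca1 is shared.

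Abca1, the cholesterol exporter, had more sites than any other of the 5 genes but none that recurred. Its 8 sites, of which lists 1, 2 and 3 held 3, 2 and 3, lay at 8 positions spread over 55057 bases of chromosome 4, all assigned to transcript ENSMUST00000030010. At least as many sites over the 3 lists were held by 5.42% of all genes with a site. Among the 1248 genes with a site in all lists, 23.3% had, like Abca1, no region in more than 1 list. Of the 283 such genes with at least 8 sites, 23 (8.13%) had no shared region.

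The Abca1 sites with the highest fold of lists 3 and 1 lay close together at the lower end of the coordinates. List 3 had a site of 244 bases at 53035337 to 53035580 with a fold of 12.7 and a score of 131.83, and 91.4% of the sites of that list had a lower fold. After a gap of 681 bases, list 1 had a site at 53036262 to 53036354 with a fold of 8.44 and a score of 131.1. A gap of 518 bases separated it from another site of list 1, at 53036873 to 53036976, with a fold of 5.71 and a score of 100.35. These 3 sites, from 2 immunoprecipitations, therefore fell within a short stretch without overlapping. List 2 had no listed site there.

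At the other end, a site of list 2 lay near a site of list 3. List 2 had a site at 53089799 to 53089915 with a fold of 4.81 and a score of 50.5, and list 3 had one at 53090254 to 53090393, 338 bases further, with a fold of 7.35 and a score of 66.8. The remaining sites stood apart. That of list 3 at 53042664 to 53042793 had a fold of 8.01, that of list 1 at 53059257 to 53059362 had 6.12, and that of list 2 at 53081922 to 53082143 had 6.41. The fold of 6.41 was the median of list 2 and was carried by 118 of its sites, and the fold of 8.01 by 87 sites of list 3, so these values do not set the Abca1 sites apart from others. A score near the caller's lower limit of 50 was common in this gene. Of its sites, 4 scored under 70, a caller p above 1e-07, including both sites of list 2, at 56.4 and 50.5. No other of the 18 sites scored under 70, beside 34.8% of all sites.

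Between the listed sites of Scarb1 and of Abca1 there were also calls that the deposited lists leave out. To which gene or strand these calls belong is not known. The call numbers ran in genome order on all 60 pairs of chromosome and list, so a missing number marks a call that is not listed between its neighbours. In list 3 the Abca1 sites carried numbers from 25101 to 25120, which is 20 calls, of which 17 were not listed. In list 2 the numbers from the first to the last Abca1 site left 3 calls unlisted, and in list 1 they left 1. Between the first and last Scarb1 sites, 1 call was unlisted in list 2 and 1 in list 3. Most calls were unlisted genome-wide. The highest listed call numbers were 35258, 37141 and 39806 in lists 1, 2 and 3, beside 4722, 5384 and 7966 listed sites. Across the 5 genes there were 27 combinations of a region and a list without a site there. In each, at least 1 unlisted call lay between the nearest listed sites on either side. With so many calls unlisted everywhere, this count is not read as a trait of these genes. A missing site in these genes is therefore a site not listed, and the lists do not show that none was called.

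Of the 18 sites, that of Srebf2, the sterol-regulated transcription factor gene, ranked highest relative to the other sites of its list, both by fold and by score. This only site of the gene, in list 2, lay on chromosome 15 at 82079116 to 82079225, 110 bases long and assigned to transcript ENSMUST00000023100. The fold was 13.4, the score 299.9, corresponding to a caller p of 1.02e-30, and the caller's false discovery rate 13.27%. That rate was above the list 2 median of 13%, so the site did not stand out by this measure. By fold the site ranked 78 among the 5384 of that list (98.6% had a lower one), and 98.3% had a lower score. No other site of list 2 had the same fold. Alb and Hbb-bs, the markers of hepatocytes and red cells given above, had higher folds in list 2, at 16 and 15.5. Like Srebf2, they were listed in that list alone. A high fold in list 2 alone is therefore not read as strong binding. Lists 1 and 3 had no listed site in Srebf2; the nearest listed sites of list 1 were in Ccdc134, 66865 bases to the left, and in Cenpm, 49108 bases to the right. RefSeq places Mir33 within Srebf2. Its mature miRNA is known as a repressor of Abca1. No listed site carried the name Mir33, but the deposited lists are of mRNA sites, and 6230 of the 6277 listed genes are protein-coding symbols. The absence of a microRNA name there therefore says nothing about Mir33. The related gene Srebf1, which acts mostly on fatty acid synthesis, was listed once, in list 3 (fold 9.52, score 52).

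Sqle, which encodes squalene epoxidase, had a single site in list 3, on chromosome 15 at 59201589 to 59201676, assigned to transcript ENSMUST00000022977. It was 88 bases long, with a fold of 11.35 and a score of 74.35. A high fold went with a modest score here, as 84.2% of the sites of list 3 had a lower fold and 39.4% a lower score. The same fold was carried by 7 sites of list 3, among them sites of Nup205, Orc2 and Fanca, which were picked out after their values were seen. The next gene in the RefSeq order, Washc5, had a site in all 3 lists.

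Acat2, the cytosolic thiolase gene, had a single site in list 2, on chromosome 17 at 13166244 to 13166366, assigned to transcript ENSMUST00000007005. The site was 123 bases long with a fold of 7.02 and a score of 156.46. In list 2, 60.6% of the sites had a lower fold and 88.8% a lower score. The gene Acat3 is the neighbour of Acat2 in RefSeq and has a similar name and product, and Gm20591 overlaps Acat2. Neither had a listed site, and whether Gm20591 could appear at all in lists of mRNA sites is not known. How reads of similar or overlapping genes were assigned is not known either. The name also needs care, since the files give ACAT2 as an older name of Soat2, the acyltransferase that makes cholesteryl ester. Soat2 was listed separately, in list 1 (fold 7.81). Its relative Soat1 was listed in list 1, at a fold of 7.48, and 4 times in list 3, at up to 13.68. The mitochondrial thiolase gene Acat1 was listed in list 1, at a fold of 9.01, and 3 times in list 3, at 4, 6 and 8.88.

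**Figure D2:**
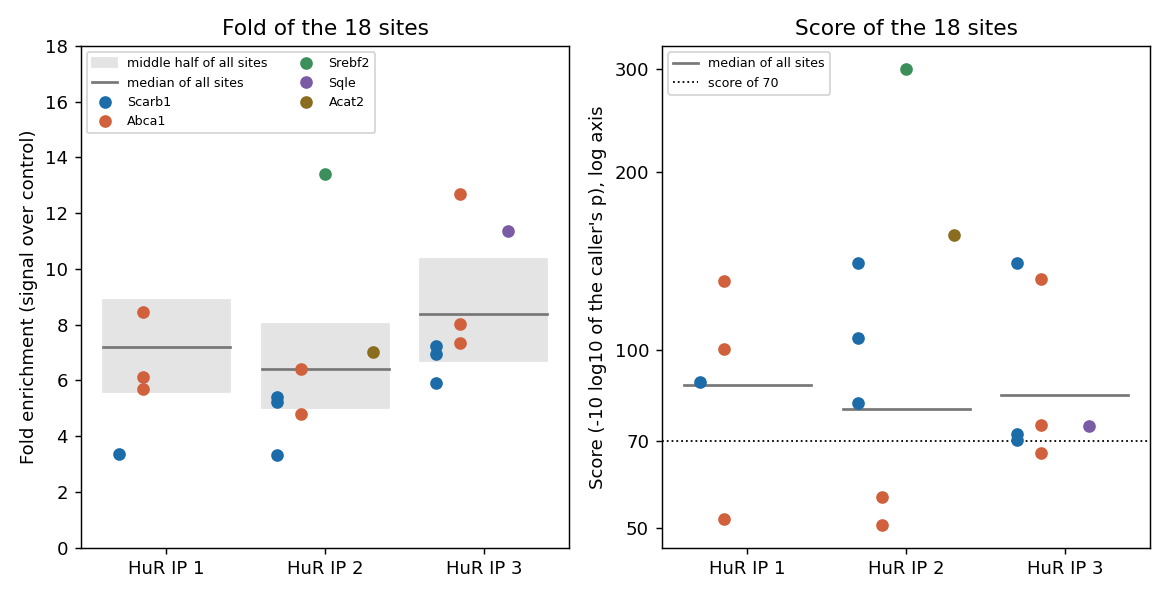
Fold enrichment (left, linear axis from 0) and score (right, log axis) of the 18 sites by HuR immunoprecipitation, with each list's median as a grey line, the interquartile range of all folds as a grey band and a score of 70 as a dotted line. The Srebf2 site stands highest in both panels at 13.4 and 299.9, and the 7 Scarb1 sites lie below the median fold of their lists.

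Set side by side, the members differed in how fold and score went together. Scarb1 had folds below the list median with scores on both sides of it, from 34.9 to 85.6% of the list below. Sqle had a fold above the list median with a score below it, and Srebf2 and Acat2 stood above their list's median in both. Abca1 varied widely, from a site of list 3 with 91.4 and 78.1% of that list below it in fold and score to a site of list 2 with 21.1 and 0.78% below it. In all, 5 of the 18 sites had a fold above the median of their list: 2 of Abca1 and those of Srebf2, Sqle and Acat2. The number of reads behind each fold is unknown, so a fold does not measure how much RNA was bound.

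**Figure D3:**
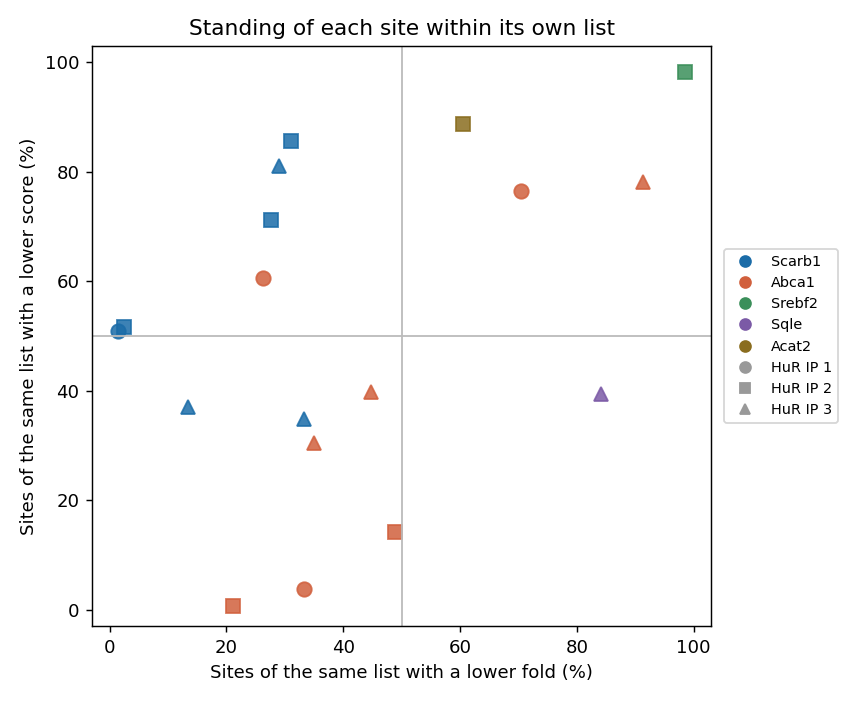
Each of the 18 sites by the percent of sites of its own list that had a lower fold (horizontal axis) and a lower score (vertical axis), with colours for genes, symbols for immunoprecipitations and grey lines at 50%. Srebf2 lies in the upper right corner, Sqle at 84.2 and 39.4% in the lower right, and the Scarb1 sites on the left.

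The 18 sites ranged from 74 to 244 bases with a median of 116.5, beside a median of 159 over all sites, and 16 of them were shorter than the median of their list; the exceptions were the Abca1 sites of 244 and 222 bases. The caller's false discovery rate, read as percent, was 14.77 to 17.27% for the members' sites in list 1, 12.44 to 13.51% in list 2 and 9.56 to 10.18% in list 3. The medians over all sites of lists 1, 2 and 3 were 15.53, 13 and 9.73%, close to these values. Exon, intron or untranslated position was not assigned, as the annotation used here is of GRCm38 and the sites are on mm39.

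The genes nearest to Scarb1 and Abca1 in their pattern were taken from the 1248 genes with a site in all lists, by the distance between the log2 of the highest folds in the 3 lists. Nearest to Scarb1 (3.36, 5.39 and 7.23) were Wapl, a cohesin release factor gene, at a distance of 0.15 with folds of 3.67, 5.11 and 7.38, Ostf1 at 0.22 and Nudcd2 at 0.24. Nearest to Abca1 (8.44, 6.41 and 12.7) were Grk5, a receptor kinase gene, at 0.07 with folds of 8.72, 6.54 and 12.29, the circadian clock gene Arntl at 0.11 with 8.48, 6.38 and 13.72, and Ogdhl at 0.14. Each distance rests on 3 values, and many genes lie close to one another on so few.

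The wider cholesterol pathway was described through 61 genes of synthesis, its control, uptake and intracellular transport, export and esterification. A site was listed for 38 of them (62.3%), beside the 28.4% of protein-coding symbols given above. That background holds genes these cells may not express. The 38 include the 5 genes described, each chosen from the listed genes, and the 61 were chosen with earlier results of these data known. The higher share is therefore not read as enrichment of the pathway. A site in all 3 lists was found for 6 of the 38 (15.8%), beside 19.9% of all genes with a site, which does not set the pathway apart. In exactly 2 lists there were 13 genes, and in 1 list 19 of the 38, beside 44.8% of all genes with a site. Lists 1, 2 and 3 held 21, 24 and 18 of the 38, beside the shares of 54.5%, 57.8% and 62.8% given above.

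All 6 genes found in every list belonged to uptake, transport or export: Scarb1, Abca1, Npc1, Gramd1b, Osbpl2 and Vldlr. Npc1, which moves cholesterol out of lysosomes, had highest folds of 9.64, 10.01 and 12.41 in lists 1, 2 and 3. Gramd1b, which carries cholesterol from the plasma membrane to the endoplasmic reticulum, had 13.77, 8.01 and 10.01. Osbpl2, a gene of the oxysterol-binding protein family, had 4.17, 5.31 and 13.12, and Vldlr, a lipoprotein receptor gene, had 4.58, 5.64 and 10.61. Besides Scarb1, Osbpl2 alone of these had a region found in all lists, on chromosome 2 at 179799622 to 179799745, with folds of 4.17, 5.31 and 13.12. By role, 5 of the 11 uptake and transport genes with a site and 1 of the 2 export genes were in every list.

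None of the 16 synthesis genes with a site was in every list, beside 19.9% of all genes with a site. Among them 5 were in exactly 2 lists, with Pmvk, Mvd, Fdft1 and Dhcr7 among these, and 11, with Sqle and Acat2, in a single list, beside 44.8% of all genes with a site. Mvd was the synthesis gene with a region shared by 2 lists. Hmgcs1, Fdps, Ebp and Tm7sf2 were among the synthesis genes with no listed site. Pmvk, which encodes phosphomevalonate kinase, reached a fold of 14.33 in list 1, and its site in list 2 had 2.93 at another position. Of the control genes 7 of 14 had a site and none was in every list; Mbtps1, which encodes a protease that cleaves SREBP proteins, reached 14.65 in list 3 and 7.15 in list 2, while Scap, Insig1 and Insig2 had no listed site. Gramd1a, a relative of Gramd1b, had a region on chromosome 7 at 30841976 to 30842079 with folds of 7.98 in list 1 and 13.86 in list 3. Npc1l1, the intestinal cholesterol uptake gene, had no listed site.

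The difference between roles was not tested. The synthesis genes with a site had 1 to 3 sites each over the 3 lists and the uptake and transport genes had 1 to 7. Most synthesis genes therefore had too few sites to be in every list. Beyond that limit, the part of the number of sites in the recurrence of a gene was not tested. At a score of at least 70 the genes in every list were Scarb1, Vldlr and Npc1, and at a fold of at least 5 they were Npc1, Gramd1b and Abca1.

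**Figure D4:**
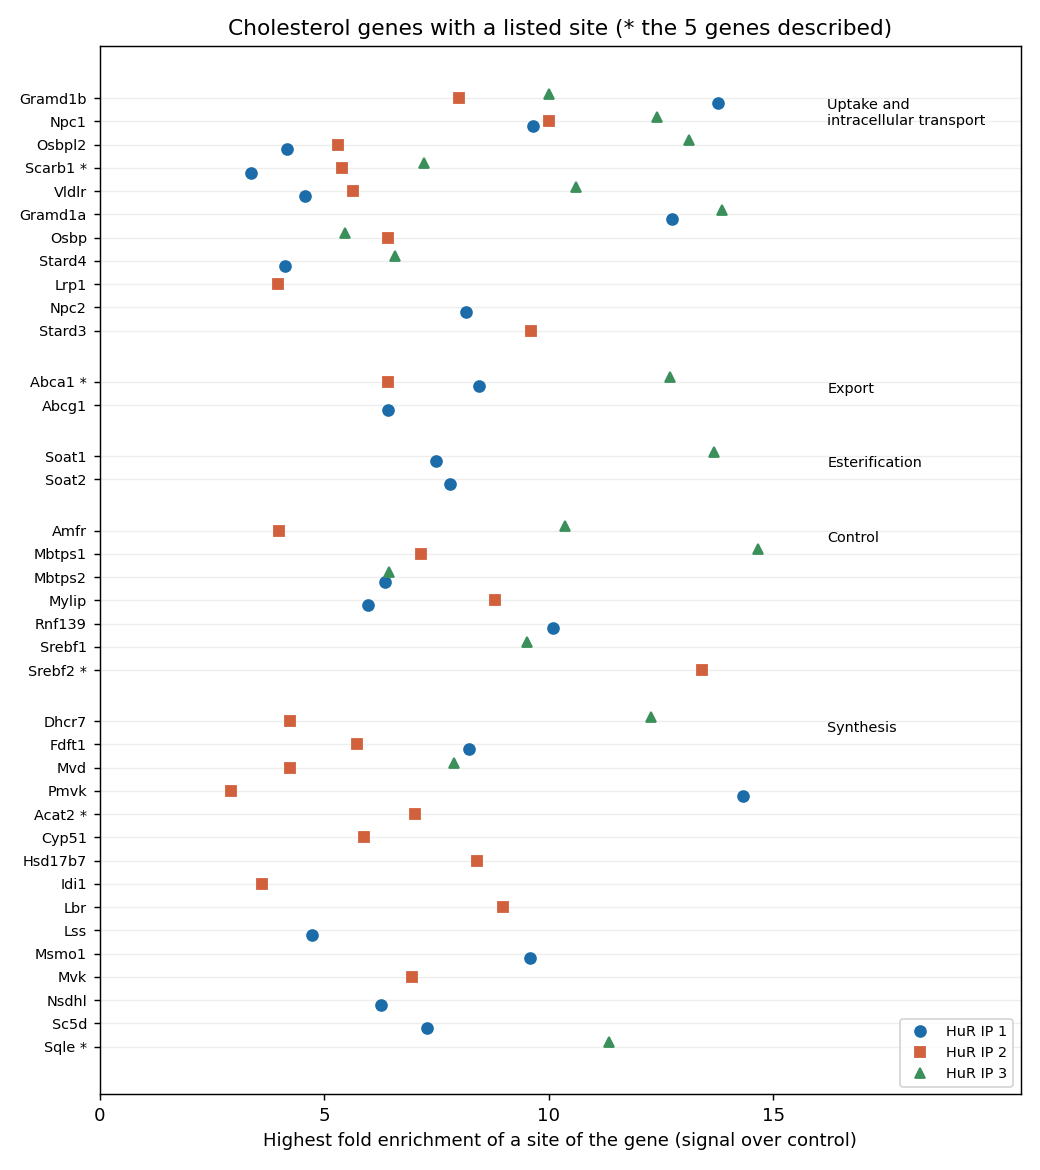
Highest fold enrichment in each HuR immunoprecipitation for 37 of the 38 cholesterol genes with a listed site, grouped by role, with a symbol for each list and an asterisk for the 5 genes described. Genes with a symbol from all 3 lists, such as Npc1 at 9.64, 10.01 and 12.41, appear in the uptake and export groups and in no other.

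The authors' deposited table of 11 gene symbols holds Scarb1, Abca1 and Acat2 but not Srebf2 or Sqle. The same 3 members carry the pathway term for fat digestion and absorption in the files, a term carried by 9 listed genes, of which 3 had a site in all lists. The symbols are the authors' choice from these samples and are not independent evidence. Sqle carries the steroid biosynthesis term with 9 other listed genes, and none of these 10 was in every list. Of the 10, only Fdft1 and Soat1 had the 3 or more sites that this requires. Acat2 carries the terpenoid backbone term with 14 others, and 2 of the 15 were in every list. Abca1 carries the ABC transporter term, for which 5 of 19 listed genes were in every list. Over all genes with a site this share was 19.9%, and none of the counts was tested.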

How the data were processed

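Per the submitters' processing notes, the build was mm39 and the tools were STAR, HISAT2 2.0.4, cutadapt 1.9.3 and FastQC, with no role or order given; the site names carry the prefix of the MACS caller. Sites were called by the authors per immunoprecipitation. Per the file headers, the fold is a ratio of enrichment that the caller computed, the deposited score is minus 10 times the log10 of p, and the authors' FDR is read as percent from its range. The deposited joined list was used for counts alone; it holds 15 of the 18 sites and leaves out 3 Scarb1 sites that overlap an earlier one.

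Sites were merged into regions when they overlapped by at least 1 base (Python 3.11.15, pandas 2.3.3), after a check on simulated intervals. Starts are printed counted from 1. Genes keep the files' names. The share of members called is set beside the share of all features; no test was run, since sites have no replicate values. Members, lists and settings were chosen with earlier results of these data known. Named are all members, the cholesterol genes in every list, the 3 others with the highest fold, namesakes of members, and the 3 genes nearest to each member found in every list; other genes appear as counts or names, and 3 genes of the list are counted but not reported by name here.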

Additional observations from a re-analysis of the deposited data

How the results depend on the processing

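No paired analysis was possible because sites, not levels of each library, are given, and none for IgG. The 18 sites became 14 at a score of at least 70, 15 at a fold of at least 5, 12 with each list cut to its 4722 best-scoring sites, and 11 to 14 without each immunoprecipitation. With lists of equal length Sqle lost its only site, as its score of 74.35 was under the lowest kept in list 3, 75.34. Scarb1 and Abca1 stayed in all lists with lists of equal length; at a score of at least 70 only Scarb1 did (1 gene), because both Abca1 sites of list 2 scored lower, and at a fold of at least 5 only Abca1 did (1 gene), because the Scarb1 site of list 1 had a fold of 3.36. Without each immunoprecipitation 2 genes were in both remaining lists. Regions in every list numbered 1, 0 at a fold of at least 5 and 0 with lists of equal length, which drops the Scarb1 site of list 3 with its score of 70.4, and 1 to 2 without each immunoprecipitation. Regions in at least 2 lists numbered 2, 1 at a fold of at least 5 and 1 to 2 without each immunoprecipitation. Of the 61 cholesterol genes 6 were in every list, 3 at a score of at least 70, 3 at a fold of at least 5, 5 with lists of equal length and 9 to 12 without each immunoprecipitation, as a pair asks less. An overlap covering at least 0.5 of both sites and naming by gene identifier changed none of the counts they bear on. Unknown depth and unlisted calls limit every statement that a site is missing.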
